A study of Mus musculus with 4 samples.

Results

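The genes described here are 9 mouse glutathione transferases and Abcc1, the exporter that carries their products out of the cell. They were taken by gene symbol from the deposited count table, in which each of the 10 symbols had 1 row among 54532 genes. RNA was measured by bulk sequencing of polyadenylated RNA from LL2, a mouse tumour line derived from a Lewis lung carcinoma. One group of cells had lactic acid added to its medium at 20 mM for 24 h, while control cells had an equal amount of phosphate-buffered saline (PBS) for as long. There were 2 libraries a group, described in the labels as biological replicates. Nothing says that these came from separate cultures, so p-values measure only the spread between these samples, which may be technical. LL2 is a single established line, and the labels give no genetic change in either group.

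Glutathione is the most abundant small thiol of the cell. Glutathione transferases join it to reactive, electrophilic molecules, among them toxins and the aldehydes left by lipid peroxidation. The soluble enzymes form classes named by Greek letters (alpha, mu, pi, omega, theta), while a separate family of membrane proteins, called microsomal transferases, sits in the endoplasmic reticulum and other membranes. The conjugates are pumped out by exporters such as the ABCC1 protein (also called MRP1), and outside the cell they are trimmed towards mercapturic acids. In the title of the series the subject is ferroptosis, a cell death driven by peroxidised lipids, against which glutathione is a main defence.

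With lactic acid, 5 of the 10 genes were higher, 1 was lower and 4 did not pass the test. The alpha class gene Gsta4, the theta class gene Gstt1 and the exporter Abcc1 rose 2.58-fold, 3.52-fold and 1.96-fold, and the mu and pi class genes Gstm1 and Gstp1 rose 1.43-fold and 1.37-fold. The membrane enzyme gene Mgst3 fell to 0.345 of its PBS level. Calls are those of edgeR's quasi-likelihood test with a Benjamini-Hochberg adjusted p below 0.05 over all 13922 genes tested. By that rule 49.0% of all genes tested were called, 24.7% higher and 24.3% lower, so 5 higher and 1 lower of 10 is to be read against that background. Gstt1, 1 of the 5, entered the test only through its level with lactic acid, so its call lends these counts no support. The median log2 fold change was 0.42 over the 10 genes, Gstt1 included, and 0.0073 over all genes tested. Fold changes are relative to the other genes of a library, and a change in total RNA per cell is not seen in them. With 2 libraries against 2, an exact permutation test of a single gene could give no two-sided p below 0.333, and the calls therefore lean on the variance that the model pools over genes.

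Libraries held 15501006 to 17409990 counts, of which the 10 genes together took 8982 and 9713 with PBS, and 11554 and 12310 with lactic acid. At this depth 3 counts correspond to 0.172 to 0.194 CPM (counts scaled to library size), a limit that covers counting error only. Counts of the 10 genes ran from 10 for Gstt1 to 4802 for Abcc1 in a library. Among markers of the cells themselves, the keratin gene Krt18 was at 99.3 CPM with PBS and 99.1 CPM with lactic acid, while Krt8 fell from 118 to 53.3 CPM and the epithelial genes Epcam and Cdh1 had 0 to 2 counts in a library. The summed level of these 4 epithelial markers was 213 to 221 CPM with PBS and 152 to 153 CPM with lactic acid. Of 4 mesenchymal markers Vim (4053 to 3345 CPM) and S100a4 (67.1 to 24.4 CPM) fell, Fn1 rose (1319 to 1999 CPM), and Col1a1 did not pass; their sum was 5435 to 5447 CPM with PBS and 5347 to 5393 CPM with lactic acid. Of 4 macrophage markers, Adgre1 had no count and Ptprc at most 1, and Csf1r had 0 to 5 counts. Their summed level was 4.10 to 4.32 CPM with PBS and 6.80 to 7.85 CPM with lactic acid, nearly all of it Cd68, a lysosomal protein gene that many cell types express. The part of these shifts in the results was not tested.

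**Figure D1:**
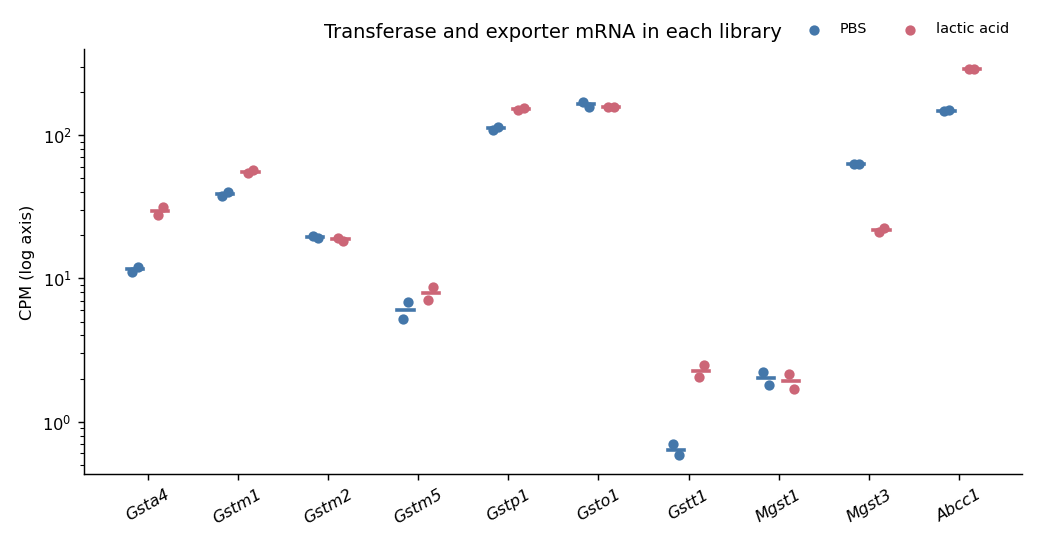
Level of each of the 10 genes in CPM, on a log axis, with a point for each library and a bar at the mean of the 2 libraries of a group. Gsta4, Gstt1, Abcc1, Gstm1 and Gstp1 lie higher with lactic acid, Mgst3 lies lower, and the points of Gstm2 and Mgst1 overlap between groups.

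Gsta4 encodes the alpha class enzyme best known for conjugating 4-hydroxynonenal, an aldehyde formed when membrane lipids are peroxidised. On GRCm38 the gene spans 78182774 to 78209349 of chromosome 9, plus strand. It was measured at 11.1 and 12.0 CPM in the PBS libraries and at 27.8 and 31.8 CPM in the lactic acid libraries. Both lactic acid libraries thus stood far above both PBS libraries, and the difference between groups exceeded that between replicates. Its log2 fold change was 1.37 with a standard error (SE) of 0.11 and an adjusted p of 9.69e-17, and it was larger than that of 97.4% of all genes tested. The nearest other transcripts, those of Gsta1, Gsta2 and Gm10639, were at most 68.9% identical to it over an aligned stretch of at least 300 bases. None of these 3 genes had more than 3 counts in a library.

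Gstt1, a theta class gene on chromosome 10 (75783813 to 75798584, minus strand), encodes an enzyme that acts on small halogenated compounds. It had 11 and 10 counts with PBS, against 32 and 41 with lactic acid, or 0.693 and 0.584 against 2.03 and 2.48 CPM. The groups did not overlap, but the PBS counts are the fewest of the 10 genes. The log2 fold change was 1.81 with an SE of 0.43 (adjusted p = 0.000312) and a 95% interval of 0.96 to 2.67, the widest interval of the 10. Only 1 of the PBS libraries reached the 0.616 CPM that the filter on low counts asks for in 2 libraries, so the gene entered the test through its level with lactic acid.

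Of the mu class genes, which lie together on chromosome 3, Gstm1 is the most abundant here. It stood at 37.9 and 40.0 CPM with PBS and at 54.4 and 56.9 CPM with lactic acid, with no overlap (log2 fold change 0.51, SE 0.068, adjusted p = 3.65e-09). Its neighbour Gstm2 was at 19.8 and 19.1 CPM with PBS and at 19.2 and 18.3 CPM with lactic acid. These groups overlapped, and Gstm2 did not pass (log2 fold change -0.054, 95% interval -0.27 to 0.16, adjusted p = 0.708). Gstm5 was measured at 5.23 and 6.89 CPM with PBS and at 7.05 and 8.70 CPM with lactic acid. Both of its lactic acid values were above both PBS values, by little next to the spread within a group. Its log2 fold change of 0.38 (SE 0.18) had an unadjusted 95% interval of 0.015 to 0.74 and did not pass after adjustment (adjusted p = 0.0784). An antisense gene, 4933431E20Rik, shares 13.9% of the exon bases of Gstm5 and held 22.8% as many counts; without strand, reads from the shared bases may belong to either gene.

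The letters of these 3 mu class transcripts show how far reads can separate them. The lines give 60 bases of a coding exon of Gstm1 (GRCm38 chr3:108014981-108015040, minus strand) and the aligned bases of Gstm2 (chr3:107984165-107984224, minus strand) and Gstm5 (chr3:107897967-107898026, plus strand), 5′ to 3′, with capitals where a base differs from Gstm1.
Gstm1: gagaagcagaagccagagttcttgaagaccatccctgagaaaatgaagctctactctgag
Gstm2: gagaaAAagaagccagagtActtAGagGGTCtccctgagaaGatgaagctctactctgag
Gstm5: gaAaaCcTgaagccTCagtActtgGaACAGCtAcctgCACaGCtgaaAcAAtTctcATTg
Here Gstm2 differs from Gstm1 at 10 of 60 bases and Gstm5 at 25. In a local alignment of the transcripts, gaps not counted, Gstm1 was 86.1% identical to Gstm2 and 71.8% to Gstm5. By blastn, the closest sequence to Gstm1 was the pseudogene Gstm2-ps1, 97.9% identical over 657 bases. It had 44 counts over the 4 libraries against 3084 of Gstm1. The other mu class genes of the cluster were low. Gstm4 was at 2.58 to 4.71 CPM over the libraries and Gstm7 at 1.14 to 1.28 CPM, and neither passed, while Gstm3 and Gstm6 had at most 1 count in a library.

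Gstp1, the pi class gene on chromosome 19 (4035407 to 4037921, minus strand), encodes a broad detoxifying enzyme that also binds the stress kinase JNK. It was the most abundant transferase of the 9 per unit length, at 143 and 152 FPKM with PBS and at 198 and 202 FPKM with lactic acid. FPKM are the authors' values, scaled to gene length and to an adjusted library size. In CPM Gstp1 measured 108 and 115 against 151 and 154, again with no overlap. The log2 fold change was 0.45 with an SE of 0.042 (adjusted p = 2.93e-14).

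Gstp1 has near copies whose letters bear on its counts. The lines show 60 bases of a coding exon of Gstp1 (GRCm38 chr19:4035602-4035661, minus strand), of the processed pseudogene Gstp-ps (chr1:192073949-192074008, minus strand) and of the neighbouring gene Gstp2 (chr19:4040480-4040539, minus strand), with capitals reserved for differences from Gstp1.
Gstp1: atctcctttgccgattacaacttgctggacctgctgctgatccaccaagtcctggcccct
Gstp-ps: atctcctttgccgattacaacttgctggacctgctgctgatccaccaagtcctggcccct
Gstp2: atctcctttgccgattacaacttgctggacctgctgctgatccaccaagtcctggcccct
All 60 bases are the same, so a read that lies wholly within this stretch cannot be assigned by its letters. A read that reaches beyond it may hold a difference. In a local alignment, gaps not counted, Gstp-ps was 97.6% identical to Gstp1 over 631 bases, and Gstp2 95.7% over 786 bases. By blastn, Gstp-ps was 99.2% identical to Gstp2 over 631 bases. Gstp-ps held 279 and 314 counts with PBS and 406 and 441 with lactic acid, which is 15.9% to 16.3% of the Gstp1 count with PBS and 17.1% to 17.3% with lactic acid. Taken alone, Gstp-ps was called higher with a log2 fold change of 0.55 (SE 0.098, adjusted p = 3.80e-06). These counts may hold reads of Gstp1 or Gstp2, so the call does not show a change of the pseudogene itself. The origin of the reads was not tested. Gstp2 had 2 counts in each PBS library and 7 in each lactic acid library, and the same limit applies to these counts. When Gstp-ps counts were added to those of Gstp1, the log2 fold change was 0.47 (SE 0.040, adjusted p = 2.37e-15).

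Gsto1, an omega class gene on chromosome 19 (47854970 to 47864790, plus strand), encodes an enzyme that reduces dehydroascorbate and removes glutathione from proteins rather than conjugating it. Its level was 172 and 158 CPM with PBS and 158 and 157 CPM with lactic acid. The lactic acid values lay just below the lower PBS value, and the PBS libraries differed more from each other than the groups did. Gsto1 did not pass (log2 fold change -0.068, 95% interval -0.15 to 0.013, adjusted p = 0.161). Without PBS replicate 2 it was called lower (log2 fold change -0.13, adjusted p = 0.0198), in a fit whose lone PBS library is assumed to vary like the lactic acid libraries. Cfap43 lies across it on the other strand but shares no annotated exon base with it.

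The membrane enzymes encoded by Mgst1 and Mgst3 can also reduce lipid hydroperoxides with glutathione. Mgst3, on chromosome 1 (167371966 to 167393841, minus strand), was measured at 62.6 and 63.4 CPM with PBS and at 21.0 and 22.4 CPM with lactic acid. The PBS libraries differed by less than 1 CPM, and the groups were far apart. Its log2 fold change was -1.54 (SE 0.075, adjusted p = 9.88e-26), and 0.639% of all genes tested had a lower value. Its closest annotated relative, Gm29778, was 85.7% identical over 475 bases and had no count. Mgst1, on chromosome 6 (138140316 to 138156755, plus strand), had 35 and 31 counts with PBS and 34 and 28 with lactic acid, which is 1.69 to 2.21 CPM. The groups overlapped and the log2 fold change was -0.059 (adjusted p = 0.907). Its 95% interval was -0.74 to 0.62, and changes within it are not excluded at these counts with 2 libraries a group. The sign of the log2 fold change turned when PBS replicate 1 (0.084) or lactic acid replicate 2 (0.11) was left out.

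Abcc1, the conjugate exporter on chromosome 16 (14361558 to 14475737, plus strand), also carries leukotriene C4 and many drugs. It was measured at 147 and 150 CPM with PBS and at 292 and 290 CPM with lactic acid. Replicates lay far closer to each other than to the other group. The log2 fold change was 0.97 with an SE of 0.036 (adjusted p = 2.70e-31), the smallest SE of the 10 genes.

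**Figure D2:**
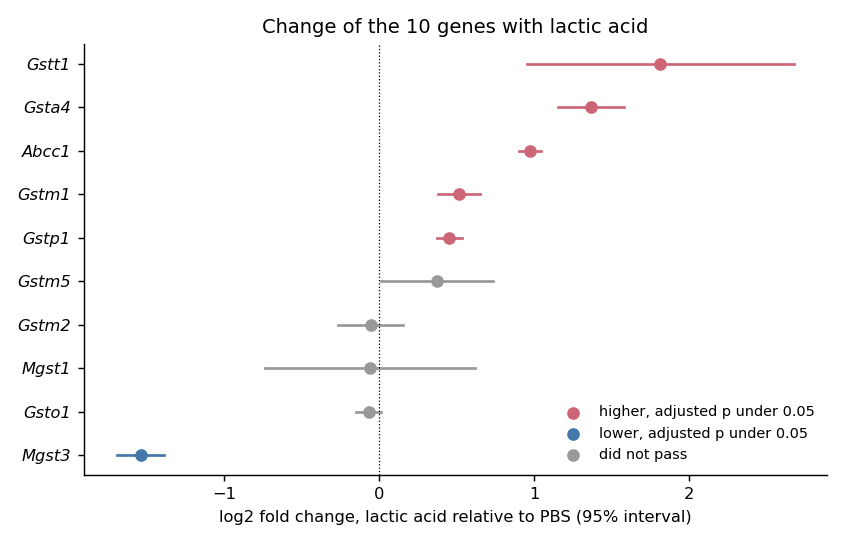
Log2 fold change of each of the 10 genes, lactic acid relative to PBS, with its unadjusted 95% interval; colours give the call after adjustment. Gstt1 (1.81), Gsta4 (1.37) and Abcc1 (0.97) lie farthest to the right, Mgst3 (-1.54) is the only gene far to the left, and the interval of Gstm5 begins at 0.015 although its adjusted p did not pass.

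Groups did not overlap for 8 of the 10 genes, 6 with lactic acid above and 2 below, where 72.3% of all genes tested did not overlap, 36.9% with lactic acid above and 35.5% below. Gstt1, 1 of the 6 above, entered the test only through its level with lactic acid and lends this count no support. Gstm5 and Gsto1 are the genes without overlap that did not pass. All 6 calls kept their direction and passed in each of the 14 alternative analyses. The highest adjusted p over the 14 was 0.0151, for Gstt1. In the 4 that leave out a library, 1 group holds a lone library, which is assumed to vary like the other group.

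**Figure D3:**
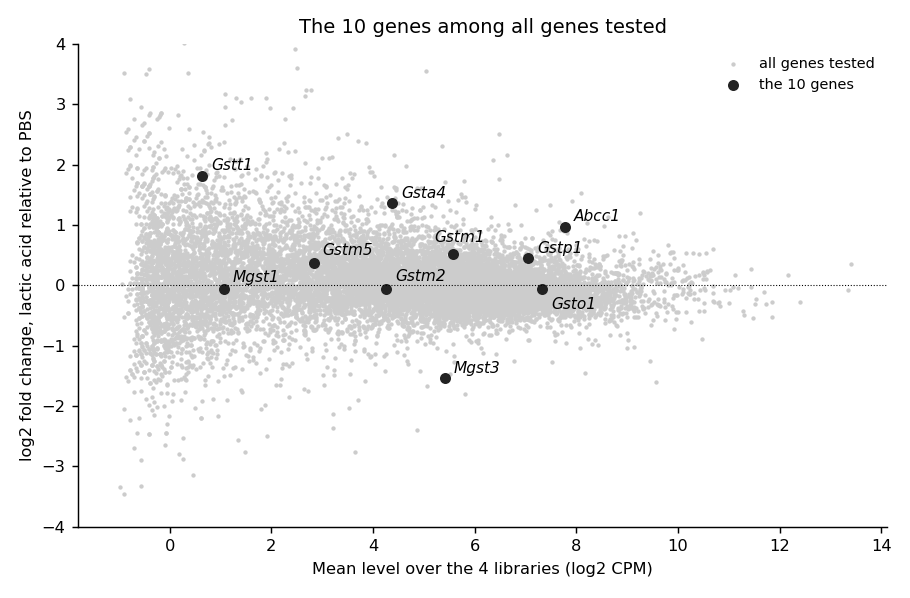
Log2 fold change against mean log2 CPM over the 4 libraries for the 13922 genes tested (grey) and the 10 genes (black). Fold changes of 9 genes lie beyond 4 either way and are not drawn. Fold changes of Gsta4, Abcc1 and Mgst3 lie above those of 97.4%, 94.6% and 0.639% of all genes tested, while Gstm2, Gsto1 and Mgst1 lie near 0.

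Per unit length, the order of the transferases differed between groups at Mgst3, at Gsta4 and at the pair of Mgst1 and Gstt1. With PBS Mgst3 was the third of the 9 (57.0 and 57.7 FPKM), below Gstp1 and Gsto1 (87.2 and 80.4 FPKM) and above Gstm1 (25.7 and 27.2 FPKM). With lactic acid Mgst3 was at 19.0 and 20.2 FPKM, below Gsto1 (79.4 and 79.1 FPKM), Gstm1 (36.6 and 38.3 FPKM) and Gsta4 (21.8 and 24.9 FPKM). The ratio of Mgst3 to Gstm1 was 2.22 and 2.13 with PBS and 0.519 and 0.528 with lactic acid. Gsta4 stood at 8.76 and 9.49 FPKM with PBS, below Gstm2 (11.8 and 11.4 FPKM), and with lactic acid above it (11.3 and 10.8 FPKM). Gstm5 was at 4.09 to 6.75 FPKM over the libraries. The lowest pair changed places, with Mgst1 at 1.10 and 0.898 FPKM above Gstt1 at 0.454 and 0.382 FPKM with PBS, and Gstt1 at 1.32 and 1.61 FPKM above Mgst1 at 1.06 and 0.833 FPKM with lactic acid. Abcc1 was at 9.73 and 9.91 FPKM with PBS and at 19.2 and 19.1 FPKM with lactic acid, a range that overlaps that of Mgst3. The length used for Abcc1, 15092 bases, equals its exon bases pooled over 12 annotated transcripts. A single transcript can be shorter, so the place of Abcc1 in the order depends on that length. Neighbours in the PBS order of the 10 genes did not overlap, which with 2 libraries a group is a description and no test.

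The FPKM of the 9 transferases summed to 339 and 345 with PBS and to 374 and 385 with lactic acid. Gstp1 made up 42.1% and 44.1% of that sum with PBS and 52.9% and 52.6% with lactic acid. Mgst3 made up 16.8% of it in each PBS library and 5.08% and 5.25% with lactic acid. Gsta4 went from 2.59% and 2.75% to 5.83% and 6.47%, and Gsto1 from 25.7% and 23.3% to 21.2% and 20.6%. A share also moves when other members move, and these are shares of mRNA, not of protein or activity.

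**Figure D4:**
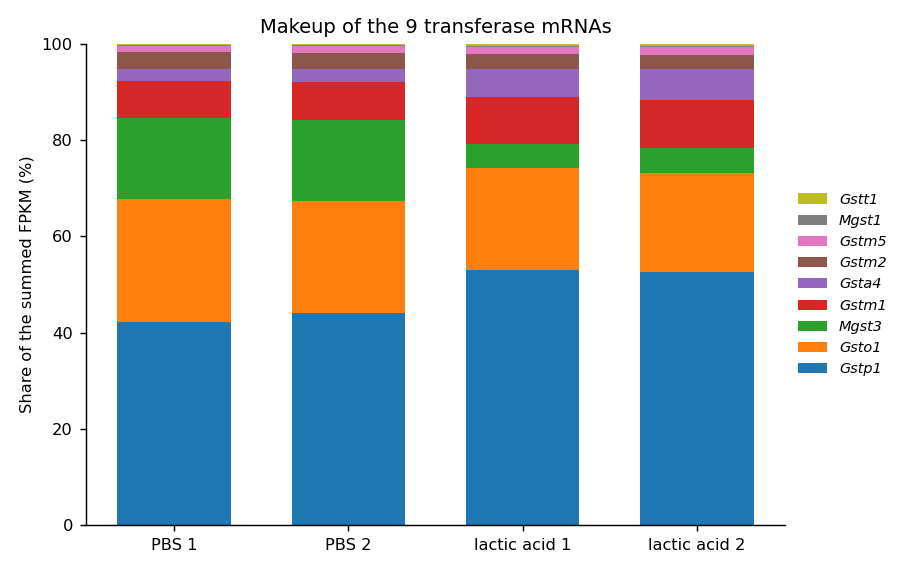
Share of each transferase in the summed FPKM of the 9 genes (percent), for each library. The Gstp1 share is 42.1% and 44.1% with PBS and 52.9% and 52.6% with lactic acid, and the Mgst3 share is 16.8% with PBS and 5.08% and 5.25% with lactic acid.

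Many transferase genes are known targets of NRF2, a factor that binds antioxidant response elements, and the Gstp1 promoter is also known for a site of the AP-1 type. RefSeq's promoter table (GRCm38.p6) held entries for 8 of the 10 genes, in 10 windows. Gsta4 and Abcc1 have no entry. The 250 bases before each start were searched on both strands for TGACNNNGC, the core of the antioxidant response element, for its wider form TGANNNNGC, which includes the core, and for the AP-1 site TGANTCA, which can overlap the wider form. Shown are the windows of Gstp1 and Gstm1, which rose, and of Mgst3, which fell, 5′ to 3′ on the strand of the gene, with matches to any of the motifs in capitals.
Gstp1 (chr19:4037913-4038162, minus strand): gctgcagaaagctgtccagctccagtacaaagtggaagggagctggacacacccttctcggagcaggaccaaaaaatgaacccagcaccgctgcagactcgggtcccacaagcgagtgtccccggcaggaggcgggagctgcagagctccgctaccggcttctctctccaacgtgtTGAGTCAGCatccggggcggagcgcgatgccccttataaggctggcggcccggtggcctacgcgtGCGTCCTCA
Gstm1 (chr3:108017974-108018223, minus strand): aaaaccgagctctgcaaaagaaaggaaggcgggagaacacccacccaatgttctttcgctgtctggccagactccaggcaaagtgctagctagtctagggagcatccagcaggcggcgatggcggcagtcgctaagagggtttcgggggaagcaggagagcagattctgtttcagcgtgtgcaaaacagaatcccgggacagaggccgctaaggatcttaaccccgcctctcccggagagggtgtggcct
Mgst3 (chr1:167393842-167394091, minus strand): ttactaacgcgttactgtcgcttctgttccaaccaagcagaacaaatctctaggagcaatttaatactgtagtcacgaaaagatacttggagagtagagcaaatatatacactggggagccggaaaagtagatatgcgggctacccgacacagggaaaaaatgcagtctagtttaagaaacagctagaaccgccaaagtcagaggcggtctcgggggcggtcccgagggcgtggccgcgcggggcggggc
In the Gstp1 window TGAGTCAGC begins 74 bases before the start and matches the wider form and the AP-1 site, and a further match to the wider form lies on the other strand at 9 bases. The windows of Gstm1 (both of its starts), Gstm2, Gsto1 and Mgst3 hold no match to these motifs. The core occurs in windows of 2 of the 8 genes, as TGACCACGC in Gstm5 and as TGACCGTGC, on the other strand, in Mgst1, neither of which was called. The wider form occurs in 4 of the 8 (Gstm5, Gstp1, Gstt1 and Mgst1) and the AP-1 site in 2 (Gstm5 and Gstp1). The Gstt1 window (75797732 to 75797981) lies wholly inside the span of the gene given above, as does a second Mgst1 window (138141337 to 138141586). Some other windows reach into the span of their gene in part. Counted by window, 2 of the 10 hold the core, 4 the wider form and 2 the AP-1 site. Of all 32851 windows in the table, 10.2% hold the core, 35.2% the wider form and 6.75% the AP-1 site. A match is a run of letters and shows no binding.

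Beyond the 10 genes, 44 symbols of other transferases, of relatives of the membrane enzymes, of other exporters and of the enzymes that process conjugates were found in the table, in 45 rows, of which 22 were abundant enough to test. Of these 22, 12 were higher, 3 lower and 7 did not pass, where 24.7% of all genes tested were higher and 24.3% lower. The median log2 fold change of the 22, Gsto2 and Alox5ap included, was 0.26, against 0.0073 over all genes tested. Rows too low to test are left out of the counts and the median. Gsto2 and Alox5ap entered the test only through their level with lactic acid, so they lend the counts and the median no support. The counts by role below are to be read against the same background. Among 7 other transferases 4 were higher and none lower. Gstz1, the zeta class enzyme that also serves in tyrosine breakdown, rose from 22.9 and 22.2 CPM to 33.3 and 29.3 CPM (log2 fold change 0.47, SE 0.089, adjusted p = 1.12e-05). Pomt2 lies across it on the other strand, shares 9.14% of its exon bases and held more counts than Gstz1. Mgst2, a membrane enzyme that can make leukotriene C4, went from 8.95 and 8.46 CPM to 10.9 and 13.8 CPM (log2 fold change 0.50, SE 0.15, adjusted p = 0.00348). Its call was lost without lactic acid replicate 2 (log2 fold change 0.32, adjusted p = 0.157), with DESeq2 (adjusted p = 0.0623) and with limma on the FPKM with 1 or 0.1 added (0.0614 and 0.0583), in a range of 0.000812 to 0.157. Gstcd, named for a domain like that of the transferases, was higher by 0.18 on the log2 scale (adjusted p = 0.00700). That call was lost with DESeq2 (adjusted p = 0.104), without PBS replicate 2 (0.0834) and without lactic acid replicate 1 (0.0612), in a range of 0.00301 to 0.104. Ints12 overlaps Gstcd on the other strand with 1.85% of its exon bases shared.

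Of the relatives of the membrane enzymes, Ptges, the inducible prostaglandin E synthase, rose from 232 and 225 CPM to 364 and 353 CPM (log2 fold change 0.65, SE 0.034, adjusted p = 1.99e-24). Among 6 other exporters 1 was higher and 3 were lower. Abcc4, an exporter of cyclic nucleotides and prostaglandins, rose from 78.4 and 74.1 to 89.5 and 91.2 CPM (log2 fold change 0.25). Abcc5, which also carries cyclic nucleotides, was at 80.8 and 78.3 CPM with PBS and at 71.0 and 64.7 CPM with lactic acid (-0.23, adjusted p = 0.000442), a call lost without lactic acid replicate 2 (adjusted p = 0.0513, in a range of 3.44e-05 to 0.0513). Abcc10 and Abcg2 did not pass (log2 fold changes 0.15 and 0.068, 95% intervals -0.11 to 0.41 and -0.20 to 0.34).

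Among 7 tested genes of conjugate processing 5 were higher and none was lower. Acy1, an aminoacylase that acts on N-acetylated amino acids, rose from 26.3 and 26.9 to 39.0 and 39.9 CPM (log2 fold change 0.57, SE 0.080, adjusted p = 1.75e-08). Lap3, a leucine aminopeptidase, was higher by 0.13 on the log2 scale (adjusted p = 0.00713), a call lost without PBS replicate 2 (adjusted p = 0.112) and with DESeq2 (0.125), in a range of 0.00214 to 0.125. The other calls fell below the 10 CPM at which related genes were to be named, and these genes are named after their values were seen. Kyat1 and Kyat3, lyases that can cleave cysteine conjugates, rose 2.65-fold and 1.93-fold, and Anpep, a membrane aminopeptidase, rose 1.73-fold. The call of Kyat3 was lost with limma on the FPKM with 0.1 added (adjusted p = 0.0586, in a range of 4.63e-08 to 0.0586). Gsto2 had 14 and 7 counts with PBS and 22 and 42 with lactic acid, Alox5ap had 1 and 5 against 10 and 14, and Abcc3 had 41 and 39 against 17 and 24. All 3 were called, the first pair higher and Abcc3 lower. Each of these calls was lost when single libraries were left out: Gsto2 without PBS replicate 2 (adjusted p = 0.0664) or lactic acid replicate 2 (0.169), Alox5ap without PBS replicate 1 (0.264), lactic acid replicate 1 (0.0633) or 2 (0.203), and Abcc3 without PBS replicate 1 (0.126) or lactic acid replicate 1 (0.169). With DESeq2 the adjusted p of Alox5ap was 0.144 and that of Abcc3 0.141.

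**Figure D5:**
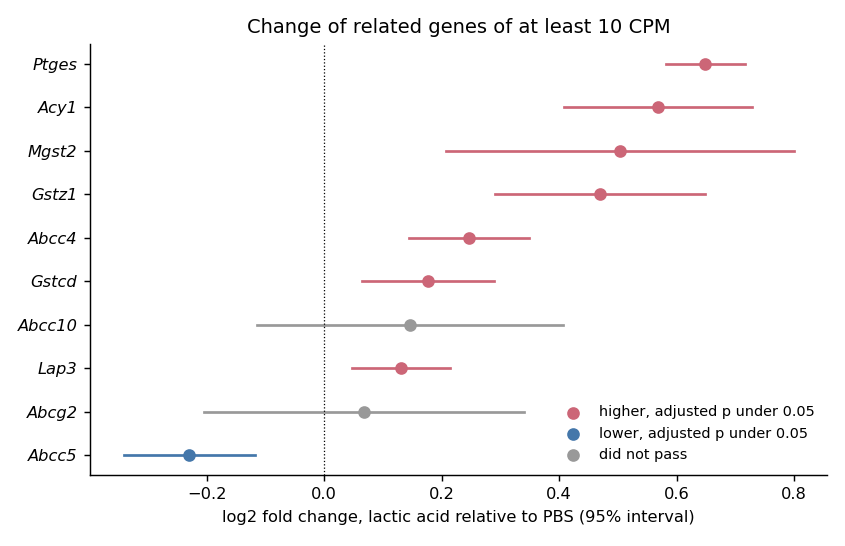
Log2 fold change, lactic acid relative to PBS, with unadjusted 95% intervals for 10 related genes with a mean of at least 10 CPM; colours give the call after adjustment. Ptges (0.65) and Acy1 (0.57) lie highest, and Abcc5 (-0.23) lies lowest.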

How the data were processed

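Polyadenylated RNA of 4 libraries was sequenced, per the labels' protocols, with a kit that does not mark strand. The authors deposited whole-number read counts per gene and FPKM values for the same 54532 genes. The tools named, per the submitters' processing notes, are HISAT2 (2.0.5) and featureCounts (1.5.0-p3), beside CASAVA, DESeq2 (1.16.1) and StringTie (1.3.3b), on GRCm38.p6 or mm10; no step is assigned to any. The handling of strand, multi-mapped and overlapping reads is not given in the sources used here. Columns were matched to samples by library name; those named NS are the PBS libraries.

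Counts were fitted with edgeR 4.0.16 (R 4.3.3): filterByExpr (minimum count 10, minimum total 15), TMM scaling, robust quasi-likelihood fit with the group as the only term, two-sided test, Benjamini-Hochberg adjustment over all 13922 genes kept, threshold 0.05. CPM use the TMM-scaled library sizes. The SE is the size of the log2 fold change divided by the square root of F. The authors' FPKM served for levels between genes, and limma 3.58.1 tested log2(FPKM + 1) as an alternative. The library sizes implied by the FPKM were 0.982 and 0.985 times the total counts with PBS, and 1.02 times with lactic acid.

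The 10 genes, the lists and the tests were chosen with earlier results of these data known. The rule for names took all 10 genes and every related gene with a mean of at least 10 CPM, of which 1 is counted but not reported here by name. Copies were sought with blastn 2.17.0 among the longest GENCODE M21 transcripts of all genes (at least 300 aligned bases); the 97% identity at which counts were summed was set after the identities were seen. Coding stretches are the first 60 bases, aligned without a gap, of the longest coding exon that allows it. Identities called those of a local alignment come from pairwise alignment of the transcripts, with gaps not counted, and can differ from blastn values.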

Additional observations from a re-analysis of the deposited data

How the results depend on the processing

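Of 140 repeats for the 10 genes under 14 alternatives, 135 kept direction and side of the threshold, 3 passed where the reported test did not, and 2 turned sign. The sign changes were those of Mgst1 (log2 fold change 0.084 without PBS replicate 1 and 0.11 without lactic acid replicate 2, in a range of -0.24 to 0.11 over the fits that leave out a library, adjusted p = 0.900 and 0.866 for the turned values). Gsto1 passed without PBS replicate 2, and Gstm5 without PBS replicate 2 (log2 fold change 0.58) and without lactic acid replicate 1 (0.52), so that with single libraries left out 5 to 6 of the genes were higher and 1 to 2 lower. The log2 fold change of Gstt1 was 0.79 to 1.95, lowest with 1 added to the FPKM, which understates the change of low genes. With the replicate number as a block (replicate block), 5 of the genes were higher and 1 lower, as in the reported test, and 3459 and 3393 of all genes; the numbers share no stated origin and same-numbered libraries showed no shared deviation (correlation 0.0038). DESeq2 1.42.0 gave 2251 higher and 2494 lower of all genes against 3445 and 3377, and the cause was not tested. Of 227 repeats for related genes and Gstp-ps, 206 kept side and direction, 20 lost a call and 1 turned sign (Abcg2, with log2 fold changes of -0.057 to 0.18 over the fits that leave out a library, the lowest without lactic acid replicate 2). Precision is set by 2 libraries a group and, for Gstt1 and Mgst1, by 10 to 41 counts a library.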

Other observations

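Of the 45 rows of related genes, 8 had no count in any library, among them the transferases Gsta1, Gstp3 and Gstt4 and the processing genes Ggt5, Ggt6, Dpep1 and Nat8. Ggt1, which encodes a gamma-glutamyl transferase that opens the breakdown of exported conjugates, had 0 and 3 counts with PBS and 20 and 6 with lactic acid, too few to enter the test. Gstk1, the mitochondrial and peroxisomal kappa class gene, had no count with PBS and 3 in each lactic acid library. At these counts no fold is given.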
